A study of Mus musculus with 10 samples.

Results

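The genes described here carry peptides to the cell surface on MHC class I. They are B2m, H2-K1, H2-D1, Tap1, Tap2, Tapbp, Erap1, Psmb8, Psmb9 and Nlrc5, chosen by symbol as a pathway, and all 10 were found among the 25229 rows of the count table. All 10 were also among the 14251 genes that passed the filter on low counts and were tested. They were measured by bulk RNA sequencing of adipose stem and precursor cells (ASPCs) of WT mice, sorted as CD45-CD31-Pdgfra+ from the stromovascular fraction of perigonadal white adipose tissue (gWAT). The cells were grown to confluence without passaging and then given either the vehicle DMSO, or 100 nM FICZ, a tryptophan photoproduct that activates the aryl hydrocarbon receptor (AHR), and were lysed 6 hr later. There were 5 DMSO and 5 FICZ libraries, and both groups carry the replicate numbers 1 to 5. The labels do not say whether a number stands for a mouse, a culture or a well, and age and sex are not given in the labels, so the p-values below measure only the spread between these libraries. The libraries hold sorted cells after expansion in culture, not whole tissue.

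MHC class I molecules display short peptides from the cell's own proteins to CD8+ T cells and natural killer cells. Proteins are cut by the proteasome, in part by its interferon-induced form, the immunoproteasome. Peptides are pumped into the endoplasmic reticulum by the TAP transporter, trimmed there, and loaded with the help of tapasin onto a heavy chain paired with beta-2-microglobulin. Nearly every nucleated cell makes class I molecules, and interferons raise most of the pathway through factors such as IRF1 and the coactivator NLRC5. AHR, when bound by a ligand, pairs with ARNT and binds DNA at short elements with the core GCGTG.

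Most of these genes lie together. In the GENCODE annotation of GRCm38, the assembly of mm10, 7 of the 10 were on chromosome 17 between 33915899 and 35267499, in the order Tapbp, H2-K1, Psmb9, Tap1, Psmb8, Tap2 and H2-D1. B2m was on chromosome 2 (122147686 to 122153083), Nlrc5 on chromosome 8 (94434356 to 94527272) and Erap1 on chromosome 13 (74639568 to 74693201). Psmb9 and Tap1 stood head to head on opposite strands, and 225 bases separated their RefSeq starts, so the upstream sequence of each gene includes that stretch.

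Upstream sequence was read for 8 of the 10 genes from RefSeq windows of GRCm38.p6 that reach 250 bases before the start. Motifs were searched on both strands. Tap2 and Nlrc5 had no window. The stretches that follow are shown because the heavy chain genes share one of them almost letter for letter, and because B2m carries the longer form of an interferon element. Capitals in the heavy chain stretches mark GGGATTCC, the core of an NF-kB site, and the reverse complement of GAANNGAAA, an interferon element. In B2m they mark the longer form of that element, GAAA, any 2 bases and GAAA again.
H2-K1, chr17:34000428-34000457, minus strand: GGGATTCCccatctccacagTTTCACTTCt
H2-D1, chr17:35262924-35262953, plus strand: GGGATTCCccatctcctcagTTTCACTTCt
B2m, chr2:122147523-122147582, plus strand: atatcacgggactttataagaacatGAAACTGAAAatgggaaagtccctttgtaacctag

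The H2-K1 and H2-D1 stretches were identical at 29 of 30 bases. GGGATTCC was found in the windows of 2 of 8 genes, H2-K1 and H2-D1, and in 0.889% of all 32851 windows. Only these exact letters were searched, and other forms of an NF-kB site were not, in B2m or any other gene. GAANNGAAA was found in the same 2 genes and in 6.31% of all windows, and the longer form in 1 of 8, B2m, and in 2.98% of windows. Either form was found in 8.82% of windows. The H2-D1 stretch lies within an exon annotated by GENCODE.

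The AHR core GCGTG was found upstream of 4 of the 8 genes with a window, H2-D1, Tap1, Psmb9 and Psmb8, and in 28.2% of all windows. The stretches around the matches of Tap1 and Psmb8 are shown because FICZ acts through AHR, with the match in capitals on whichever strand it lies (GCGTG or CACGC).
Tap1, first match, chr17:34187390-34187419: atcgcgcaagggGCGTGccgttctaccagc
Tap1, second match, chr17:34187512-34187541: gatgggaaaattCACGCaagcaagttaagg
Psmb8, first match, chr17:34197994-34198023: atccccaggacgCACGCctaggtggatctg
Psmb8, second match, chr17:34198128-34198157: cctgtgggtcttCACGCaccccactgctag

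Both Tap1 matches lie in the stretch shared with Psmb9 and are the same bases as the 2 matches of Psmb9. All 4 stretches lie within exons annotated by GENCODE. A match is a string of letters in a window, not a measured binding site.

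The libraries held between 38328611 and 50210111 counts. Cyp1a1, a cytochrome P450 gene activated by AHR, had 26.8 ± 12.8 CPM (counts scaled for depth, with TMM factors) in DMSO and 255 ± 92.4 CPM with FICZ (SD, n = 5 libraries each), with a log2 fold change of 3.25 ± 0.38 (SE) and an adjusted p of 0.0189 from edgeR's quasi-likelihood test. Pdgfra, the receptor used for the sort, lay between 1181 and 1472 CPM. Ptprc, which encodes CD45, lay between 0.141 and 1.70 CPM and Pecam1, which encodes CD31, between 0.507 and 1.62 CPM. The 7 endothelial markers together, Pecam1 among them, lay between 65.5 and 88.7 CPM with DMSO and between 70.1 and 85.8 CPM with FICZ. Hepatocyte transcripts were present in every library. Alb, the albumin gene, ranged from 682 CPM in FICZ replicate 4 to 4782 CPM in DMSO replicate 5, and the 11 hepatocyte markers together from 1267 to 8448 CPM with DMSO and from 1240 to 1883 CPM with FICZ. In these bulk samples, fewer cells of a type and less RNA per cell cannot be told apart.

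FICZ and DMSO were compared to ask whether AHR activation changed the class I pathway in these cells, and none of the 10 genes passed the threshold (adjusted p at or under 0.05 over all genes tested). Over all genes 0.0211% passed, which is 3 genes, Cyp1a1, Ahrr and Tiparp, each an AHR target. All 10 class I genes had an adjusted p of 0.999 in edgeR's quasi-likelihood test. At an unadjusted p of 0.05, 1 of 10 genes was called, Psmb8, where 4.82% of all genes were. With the replicate number as a block, Psmb8 and Psmb9 were called at that level, 2 of 10, where 4.65% of all genes were. By DESeq2 the smallest adjusted p was 0.816, for Psmb8. The fold change was above 0 for 7 genes and below for 3, where 53.8% of all genes were above, with a median log2 fold change of 0.16, where the median over all genes tested was 0.01. None of the 10 had groups that did not overlap, and over all genes tested 0.47% did, in either direction.

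**Figure D1:**
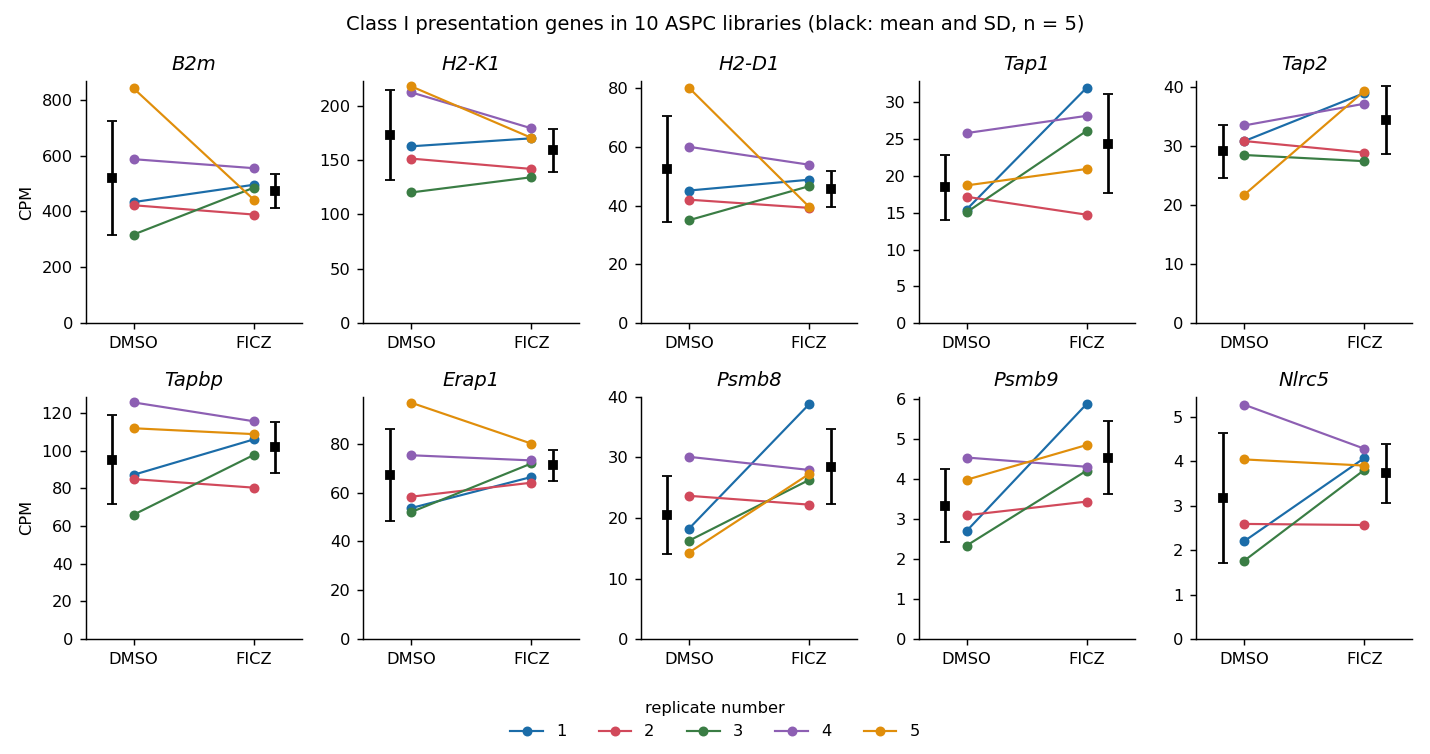
CPM of each of the 10 genes (vertical axis, from 0) in DMSO and FICZ libraries, with lines joining libraries of the same replicate number and black squares for the mean and SD of 5 libraries. The DMSO and FICZ points overlap in every panel, and DMSO replicate 5 stands highest for B2m, H2-K1, H2-D1 and Erap1.

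B2m, the light chain shared by all class I molecules, was the most abundant of the 10. It had 434, 422, 317, 587 and 840 CPM in DMSO replicates 1 to 5 and 495, 389, 485, 555 and 442 CPM in FICZ replicates 1 to 5. The 5 FICZ values lay inside the range of the DMSO values, which was set by replicate 3 at the low end and replicate 5 at the high end. Its log2 fold change was -0.14 ± 0.22 (SE), with a 95% interval from -0.62 to 0.35. Without DMSO replicate 5 the value was 0.11, so its direction rested on that library.

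H2-K1 encodes the K heavy chain, which holds the peptide groove. Its values were 163, 151, 120, 212 and 218 CPM with DMSO and 170, 142, 134, 179 and 170 CPM with FICZ. Again every FICZ library lay between the lowest and the highest DMSO library. The log2 fold change was -0.12 ± 0.16 (SE, 95% interval -0.46 to 0.23).

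H2-D1 encodes the D heavy chain. It had 45.1, 42.0, 35.0, 60.0 and 80.1 CPM with DMSO and 48.8, 39.2, 46.6, 53.9 and 39.6 CPM with FICZ. Its log2 fold change was -0.20 ± 0.20 (SE, 95% interval -0.64 to 0.24) and became 0.0028 without DMSO replicate 5. As class I heavy chains resemble each other, 9.63% of all 50-base words of H2-K1 and 12.8% of those of H2-D1 recur in other genes, chiefly other heavy chains. How reads that match several genes were counted is not given in the sources used here. The effect on the counts of these genes was not tested.

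The transporter genes leaned the other way. Tap1, one subunit of the peptide pump, had 15.4, 17.2, 15.1, 25.8 and 18.7 CPM with DMSO and 32.0, 14.7, 26.1, 28.2 and 21.0 CPM with FICZ. FICZ replicates 1, 3 and 4 were above every DMSO library, while FICZ replicate 2 was the lowest of all 10. The log2 fold change of Tap1 was 0.40 ± 0.21 (SE, 95% interval -0.05 to 0.86), with a higher value in 4 of 5 pairs and an exact two-sided permutation p of 0.159.

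Tap2, the other subunit of the pump, had 30.8, 30.9, 28.5, 33.5 and 21.8 CPM with DMSO and 39.0, 28.9, 27.4, 37.2 and 39.3 CPM with FICZ. It was lowest in DMSO replicate 5, the library in which B2m and both heavy chains were highest. The log2 fold change of Tap2 was 0.24 ± 0.14 (SE, 95% interval -0.06 to 0.55).

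Tapbp encodes tapasin, which bridges TAP and the empty heavy chain. It lay between 66.0 and 126 CPM with DMSO and between 80.3 and 116 CPM with FICZ, with a log2 fold change of 0.10 ± 0.16 (SE). The direction turned to -0.0088 without DMSO replicate 3. Erap1, the aminopeptidase that trims peptides in the endoplasmic reticulum, lay between 52.0 and 96.8 CPM with DMSO and between 64.0 and 80.1 CPM with FICZ. Its log2 fold change was 0.08 ± 0.16 (SE), and -0.0065 without DMSO replicate 1. Tapbp, Erap1, Tap2, Psmb8 and Nlrc5 overlap genes on the opposite strand, over 904, 834, 698, 498 and 78 exonic bases. Tap1 and Psmb9 overlap each other over 212. Tapbp is also overlapped on its own strand, over 149 exonic bases. Whether the counting used strand is not given in the sources used here, so reads of such partners may not be separated.

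The immunoproteasome genes had the largest fold changes of the 10. Psmb8, the subunit beta5i, had 18.2, 23.7, 16.2, 30.1 and 14.3 CPM with DMSO and 38.8, 22.2, 26.3, 27.9 and 27.3 CPM with FICZ. The lowest 3 libraries were all DMSO libraries, but DMSO replicate 4 was above 4 of the 5 FICZ libraries. The log2 fold change of Psmb8 was 0.47 ± 0.21 (SE, 95% interval 0.02 to 0.93), with a higher value in 3 of 5 pairs. Its exact two-sided permutation p was 0.0714.

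Psmb9, the subunit beta1i, was far less abundant, with 103, 154, 102, 197 and 194 counts in DMSO replicates 1 to 5 and 251, 162, 167, 187 and 210 counts in FICZ replicates 1 to 5. Scaled, these were 2.34 to 4.54 CPM with DMSO and 3.44 to 5.88 CPM with FICZ, so the groups overlapped. Its log2 fold change was 0.44 ± 0.21 (SE, 95% interval -0.01 to 0.90), higher in 4 of 5 pairs, with an exact two-sided permutation p of 0.0635. With 5 libraries against 5 the smallest p this exact test allows is 0.00794, and no class I gene had an exact p under 0.05 over all 10 libraries. Without DMSO replicate 4, the exact two-sided permutation p was 0.0238 for Psmb8 and 0.0397 for Psmb9. Without FICZ replicate 2 it was 0.0317 for Tap1. For each gene this was the only 1 of 10 omissions at or under 0.05. With other libraries left out, p reached 0.151 for Psmb8, 0.143 for Psmb9 and 0.270 for Tap1. An exact sign-flip test of the 5 pairs gave p of 0.25 for Psmb8 and for Tap1 and 0.125 for Psmb9.

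Nlrc5, the coactivator that drives class I transcription, had 2.20, 2.59, 1.76, 5.28 and 4.04 CPM with DMSO and 4.08, 2.57, 3.81, 4.28 and 3.90 CPM with FICZ. It spread the most of the 10 within groups, with a pooled SD of 0.50 in log2 CPM. For Nlrc5 the log2 fold change was 0.23 ± 0.28 (SE, 95% interval -0.39 to 0.85). Over the 10 genes, the lower ends of the 95% intervals ranged from a fold of 0.642 for H2-D1 to 1.02 for Psmb8, and the upper ends from 1.17 for H2-K1 to 1.90 for Psmb8, so these libraries did not resolve changes inside those limits.

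**Figure D2:**
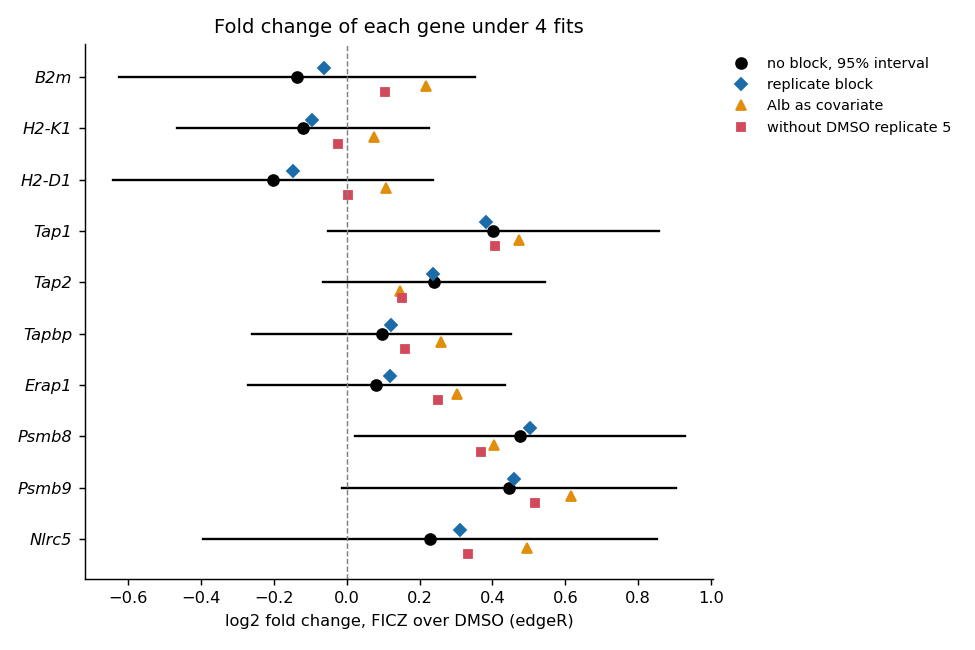
Log2 fold change of each gene, FICZ over DMSO (horizontal axis), from edgeR without a block with its 95% interval (black), with the replicate block (blue diamonds), with Alb as covariate (orange triangles) and without DMSO replicate 5 (red squares). The values of B2m and H2-D1 lie below 0 without a block (-0.14 and -0.20), and above or at 0 without DMSO replicate 5 (0.11 and 0.0028).

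Levels can be compared between genes only per length. The length taken was every base that lies in an exon of any annotated transcript of the gene. The order was not tried with other lengths. In DMSO and per kilobase of exon, B2m had 605 ± 236 CPM, H2-K1 58.8 ± 14.1, Tapbp 26.2 ± 6.50 and H2-D1 20.3 ± 6.95 CPM (SD, n = 5). Below these came Erap1 with 9.23 ± 2.60, Tap2 with 7.69 ± 1.18, Psmb8 with 6.06 ± 1.90 and Tap1 with 3.37 ± 0.799 CPM per kilobase. Psmb9 with 0.910 ± 0.249 and Nlrc5 with 0.374 ± 0.171 CPM per kilobase were the lowest. The neighbours Tapbp and H2-D1, Erap1 and Tap2, and Tap2 and Psmb8 differed by less than the larger of their SDs, whereas B2m lay above every other gene in each library.

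The same-numbered pairs did not move alike. In pair 1 all 10 genes were higher with FICZ, with a median difference of 0.32 in log2 CPM, and in pair 3 it was 9 of 10, with a median of 0.59. In pairs 2 and 4 only 2 of 10 were higher, and both medians were -0.09. In pair 5 it was 4 of 10, with B2m at -0.93 and H2-D1 at -1.01, against Psmb8 at 0.93 and Tap2 at 0.85. Over all genes tested, between 50.3% and 55% were higher with FICZ in a pair, and every pair's median was at or under 0.03. None of the 10 genes was higher with FICZ in all 5 pairs, where 4.32% of all genes were.

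**Figure D3:**
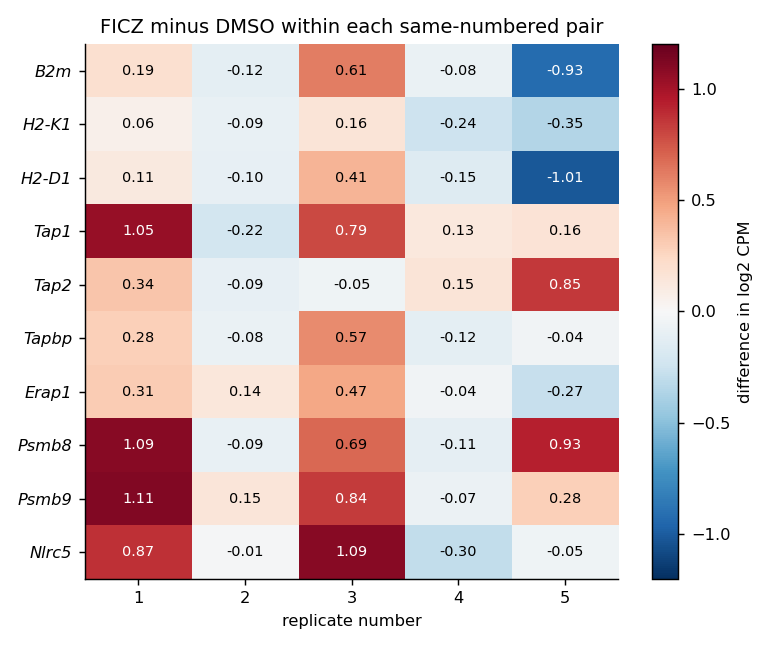
Difference in log2 CPM, FICZ minus DMSO, for each gene (rows) in each same-numbered pair of libraries (columns), red above 0 and blue below 0. Pairs 1 and 3 are red for 10 and 9 genes, pairs 2 and 4 are near 0 or blue, and pair 5 is split, with B2m at -0.93 and Psmb8 at 0.93.

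Within the groups the genes followed particular libraries. DMSO replicate 3 was the lowest of all 10 libraries for 7 genes (B2m, H2-K1, H2-D1, Tapbp, Erap1, Psmb9 and Nlrc5), and DMSO replicate 5 was the highest for 4 (B2m, H2-K1, H2-D1 and Erap1) but the lowest for Tap2 and Psmb8. DMSO replicate 4 was the highest for Tapbp and Nlrc5, and FICZ replicate 1 for Tap1, Psmb8 and Psmb9. The SD of log2 CPM was larger in DMSO than in FICZ for 8 of 10 genes, all but Tap1 and Tap2. Over all genes tested this held for 63.1%. All 10 genes spread more within groups than the median gene, whose pooled SD was 0.22 in log2 CPM. A test of the replicate number beside the treatment called none of the 10 in edgeR, where 1.8% of all genes were called. DESeq2's likelihood ratio test called 1, H2-K1 (adjusted p = 0.0195), where 11.1% of all genes with an adjusted p were called.

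The 5 other genes whose log2 CPM most resembled the mean standardized level of the 10 across the 10 libraries were Uba7, H2aw, Casp4, Ifi27l2a and Trmt1l, with Pearson's r between 0.916 and 0.936. They were picked for that likeness out of all genes tested, so r is a description, and the points share their libraries. Uba7, which encodes the activating enzyme for the ubiquitin-like protein ISG15, had 14.7, 16.4, 12.2, 27.5 and 23.6 CPM with DMSO and 28.2, 13.3, 25.2, 22.4 and 26.1 CPM with FICZ. Like most of the class I genes, it was lowest in DMSO replicate 3.

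Because the hepatocyte transcripts varied between libraries, each gene was also fitted against the log2 CPM of Alb beside the treatment. The slope is the change in log2 level for each unit of log2 CPM of Alb, so a transcript that comes wholly with Alb has a slope near 1. B2m had a slope of 0.38 ± 0.09 (SE, adjusted p = 0.0227), H2-D1 of 0.34 ± 0.09 (adjusted p = 0.0264) and Erap1 of 0.26 ± 0.07 (adjusted p = 0.0425), all from edgeR's quasi-likelihood test. These 3 of 10 genes passed with a positive slope, where 8.84% of all genes did, and none passed with a negative one, where 4.11% did. H2-K1 had a slope of 0.23 ± 0.08 (adjusted p = 0.0918). With the replicate block beside Alb, 2 of the 10 genes passed, H2-D1 with 0.38 (adjusted p = 0.0244) and Tap2 with -0.30 (adjusted p = 0.0154). Of all 14250 genes, 2017 passed in that fit, in either direction. B2m (adjusted p = 0.0511) and Erap1 (adjusted p = 0.0652) did not pass in it.

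These slopes rested on few libraries. Without DMSO replicate 5, none of the 10 genes passed, and the slope of B2m was 0.23. None passed without DMSO replicate 3 either, nor without the 2 libraries farthest from the median in Alb, DMSO replicates 5 and 1, and only B2m passed without DMSO replicate 2. Without DMSO replicate 5 the slopes of Psmb8 and Tap2 turned from -0.10 and -0.13 to 0.20 and 0.05. Over all genes the number passing went from 1844 to 396 without that library.

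The hepatocyte markers other than Alb, 10 genes, had slopes between 0.93 and 1.01. H2-Q10, a class I heavy chain made mainly by liver, had 73.4, 30.0, 31.4, 70.4 and 180 CPM with DMSO and between 27.8 and 39.0 CPM with FICZ, and a slope of 0.93 ± 0.04 (SE, adjusted p = 1.36e-08, edgeR). Its transcripts share 19.0% of their 50-base words with other genes, chiefly heavy chains that include H2-K1. The 10 macrophage markers together lay between 24.7 and 60.9 CPM with DMSO and between 24.5 and 37.2 CPM with FICZ, highest in DMSO replicate 5. Of the 10, 8 passed with a positive slope, where 8.84% of all genes did. The 7 lymphocyte markers in the table were all under the filter, with a summed level of at most 0.595 CPM. The part of other cells in the values of B2m, H2-D1 and Erap1 was not tested. With Alb as a covariate the log2 fold changes of B2m, H2-K1 and H2-D1 were 0.22, 0.07 and 0.11, and none passed the threshold.

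**Figure D4:**
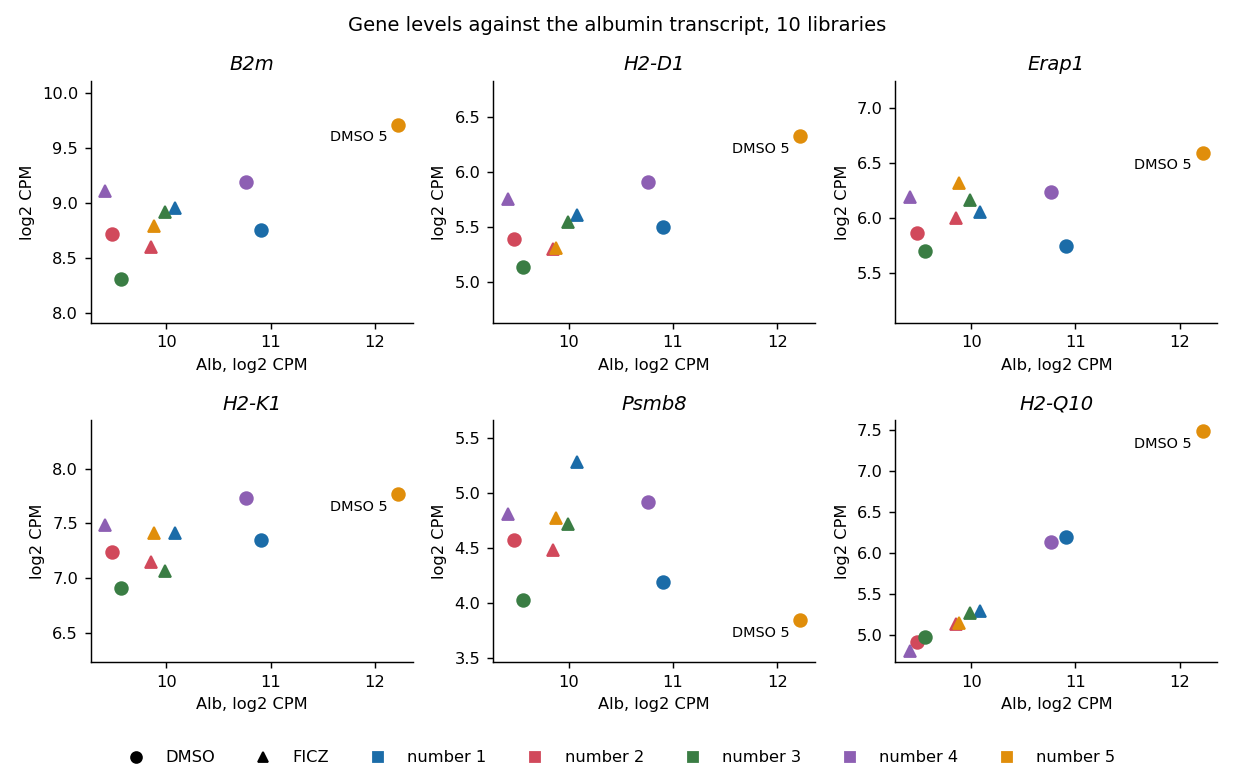
Log2 CPM of 6 genes (vertical axes) against log2 CPM of Alb (horizontal axes), with circles for DMSO, triangles for FICZ and colours for the replicate number. H2-Q10 follows Alb with a slope of 0.93, B2m and H2-D1 have slopes of 0.38 and 0.34 with DMSO replicate 5 at the upper right, and Psmb8 is lowest in that library.

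The immunoproteasome subunits replace constitutive ones, so each was divided by its counterpart within the library, which needs no scaling between libraries. The counts were not divided by length, so these percents compare libraries and do not give the share of 1 subunit against another. Per kilobase of exon in DMSO, Psmb8 had 6.06 ± 1.90 CPM against 39.8 ± 7.39 for Psmb5. Psmb9 had 0.910 ± 0.249 against 53.9 ± 5.83 for Psmb6, and Psmb10 18.5 ± 2.34 against 40.4 ± 1.59 for Psmb7 (SD, n = 5). The counts of Psmb8 were 46.7%, 66.0%, 40.9%, 75.2% and 58.9% of those of Psmb5 in DMSO and 95.3%, 61.7%, 74.1%, 87.8% and 92.0% in FICZ. The difference in log2 ratio was 0.53, higher in 4 of 5 pairs, with an exact two-sided permutation p of 0.0397. Psmb5 shares 54.1% of its 50-base words with other genes, chiefly an annotated copy, so this ratio is uncertain. Psmb9 was 3.37 ± 1.14% of Psmb6 in DMSO and 4.35 ± 0.656% in FICZ (SD, n = 5; exact permutation p = 0.127).

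Psmb10, the subunit beta2i, was 22.5%, 22.9%, 19.5%, 27.0% and 22.05% of its counterpart Psmb7 in DMSO and 33.9%, 24.6%, 26.2%, 42.6% and 36.1% in FICZ. The FICZ value was the higher one in 5 of 5 pairs, and 3 of the 5 FICZ libraries were above every DMSO library. The difference in log2 ratio was 0.50, with an exact two-sided permutation p of 0.0238. Adjusted over the 3 ratios, the p-values were 0.0595 for Psmb10 and for Psmb8 and 0.127 for Psmb9, so no ratio differed beyond the threshold after adjustment. An exact sign-flip test of the 5 pairs gave 0.0625 for Psmb10, the smallest p that 5 pairs allow, and 0.125 for Psmb8. Psmb10 by itself had 31.5 ± 3.98 CPM with DMSO and 44.7 ± 8.17 CPM with FICZ (SD, n = 5), with a log2 fold change of 0.50 ± 0.13 (SE, unadjusted p = 0.0026, adjusted p = 0.999, edgeR).

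**Figure D5:**
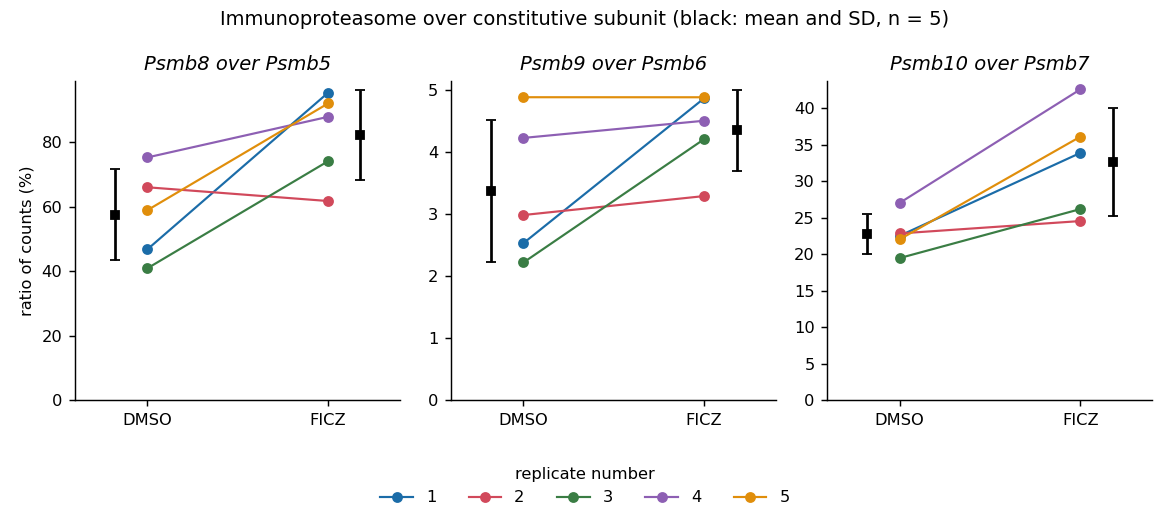
Counts of Psmb8, Psmb9 and Psmb10, not scaled for length, as a percent of those of Psmb5, Psmb6 and Psmb7 (vertical axes, from 0). Lines join same-numbered libraries, and black squares give the mean and SD of 5 libraries. The ratio of Psmb10 to Psmb7 was higher with FICZ in 5 of 5 pairs and that of Psmb8 to Psmb5 in 4 of 5.

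Other genes of the pathway were read from lists, and none of them passed the threshold between groups. Of 10 further tested genes for peptide loading and trimming, all 10 had a fold change above 0, where 53.8% of all genes did. Their median log2 fold change was 0.10. At an unadjusted p under 0.05 in edgeR, 1 of the 10 was higher, where 1.33% of all genes were. That was Tapbpl, the tapasin-related editor, with 14.1 ± 0.628 CPM with DMSO and 17.3 ± 3.48 CPM with FICZ (log2 fold change 0.30, unadjusted p = 0.0461 in edgeR). Pdia3, the disulfide isomerase of the loading complex, had a log2 fold change of 0.10. Of 22 other proteasome subunits, 17 had a fold change above 0, against 53.8% of all genes, with a median of 0.06. Psmb10 was the 1 gene at an unadjusted p under 0.05 in edgeR, against 1.33% of all genes called higher.

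Of 13 other class I heavy chains tested, 8 had a fold change above 0 and 5 below, where 53.8% of all genes were above. The median log2 fold change was 0.05. The 2 at an unadjusted p under 0.05, where 4.82% of all genes were, were H2-Q10 (log2 fold change -1.13) and H2-Q1 (-1.34). With H2-Q6 they were the 3 whose slope on Alb passed, where 8.84% of all genes passed with a positive slope. For H2-Q10 and H2-Q1 the unadjusted p with the replicate block was 0.0856 and 0.105 in edgeR. H2-T23, the non-classical heavy chain that presents leader peptides to natural killer cells, had 51.3 ± 8.29 CPM with DMSO and 55.0 ± 8.69 CPM with FICZ (SD, n = 5). Of 10 class II presentation genes 6 were tested, and all 6 had a fold change below 0, where 6585 of all 14251 genes did. Cd74, the class II invariant chain, had 5.87 ± 5.04 CPM with DMSO and 2.72 ± 0.495 CPM with FICZ, with a slope on Alb of 1.00 ± 0.07 (SE).

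Of 25 interferon receptors and regulators of class I genes, 16 had a fold change above 0, where 53.8% of all genes did. At an unadjusted p under 0.05 in edgeR 2 of these were called, where 1.33% of all genes were called higher. Irf1, the interferon-induced factor that binds class I promoters, had 51.5, 54.9, 49.2, 64.9 and 46.1 CPM with DMSO and 92.1, 63.0, 67.0, 72.9 and 74.8 CPM with FICZ. All FICZ libraries but replicate 2 were above every DMSO library, and Irf1 was higher in 5 of 5 pairs, where 4.32% of all genes were. Its log2 fold change was 0.47 ± 0.12 (SE, unadjusted p = 0.00205, adjusted p = 0.999, edgeR), and its slope on Alb was -0.03 ± 0.08. Jak1, a kinase of the interferon receptors, was also higher in 5 of 5 pairs, with a log2 fold change of 0.25 (unadjusted p = 0.0163). Irf8, a factor of myeloid cells, had 0.901 ± 0.305 CPM with DMSO and 0.516 ± 0.102 CPM with FICZ, with a log2 fold change of -0.80 (unadjusted p = 0.0152).

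Of 26 interferon-stimulated genes, 24 had a fold change above 0, where 53.8% of all genes did. At an unadjusted p under 0.05 in edgeR 12 of these were called, where 1.33% of all genes were in that direction. With the replicate block it was 2 genes, where 2.48% of all genes did, and none had an adjusted p under 0.05. Their median log2 fold change was 0.68. Gbp2, an interferon-induced GTPase, had 27.8 ± 6.88 CPM with DMSO and 42.8 ± 8.84 CPM with FICZ and was higher in 5 of 5 pairs. Ifit3, an interferon-induced antiviral gene, had between 9.23 and 21.0 CPM with DMSO and 99.8, 11.5, 51.3, 28.7 and 15.2 CPM with FICZ. The interferon-stimulated genes also differed between pairs. They were higher with FICZ for 25 of 26 genes in pair 1 and 26 of 26 in pair 3, against 3, 19 and 10 of 26 in pairs 2, 4 and 5, with median differences of 1.91, -0.46, 1.55, 0.15 and -0.27 in log2 CPM in pairs 1 to 5. Whether these genes had a part in the pair differences of the class I genes was not tested.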

How the data were processed

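The authors aligned the reads with STAR 2.7.7 to mm10 and deposited raw counts per gene symbol, whole numbers without normalization; the counting program, annotation and strand setting are not given in the sources used here. The 5 DMSO and 5 FICZ libraries were grouped by their labels, and no column was left out. Counts were tested with edgeR 4.0.16 in R 4.3.3 (quasi-likelihood test, TMM, robust dispersions, filter by expression, 14251 genes, Benjamini-Hochberg adjustment over all of them, threshold 0.05). The slope on Alb was tested over 14250 genes. CPM were scaled by TMM factors, and log2 CPM used a prior count of 2. Single genes and ratios were compared by exact two-sided permutation tests of log2 values. The tests were tried on simulated counts first.

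Depth was 38328611 to 50210111 counts per library, where a floor of 3 counts is 0.0603 to 0.0787 CPM, which covers counting error only.

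The groups share replicate numbers. Deviations from the group means correlated, across genes, between 0.154 and 0.317 for same-numbered libraries and by -0.06 on average for others. Deviations cancel out within a group, so positive values for same-numbered libraries pull the average of the others below 0. That average is therefore no separate contrast. DMSO replicate 4 correlated by 0.368 with FICZ replicate 5, against 0.317 with its own number. DMSO replicate 3 correlated by 0.303 with FICZ replicate 2, against 0.154 with its own number. The numbers were taken as pairs on this limited ground, from the data and not from the labels. The study's methods name DESeq2 with no block, so the block was an alternative. Other alternatives were DESeq2 1.42.0, other scalings, no filter, Alb as covariate, and leaving out libraries.

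The 10 genes and all lists were chosen with earlier results of these data known. Of 203 listed symbols, 5 were not found in the table. Named genes were the 10, Alb, Cyp1a1, up to 3 genes with the smallest unadjusted p in each other list, H2-Q10, Psmb5, Psmb6, Psmb7, Psmb10 and Irf1, and the 5 most like the 10. A further gene of that rule is not reported here. Ptprc, Pecam1, H2-Q6 and H2-T23 were named after their values were seen. Coordinates and exon lengths came from GENCODE vM21 (GRCm38) and upstream windows from RefSeq (GRCm38.p6). Shared sequence is the percent of a gene's 50-base words found in transcripts of other genes.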

Additional observations from a re-analysis of the deposited data

Results flagged for a closer look

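In FICZ, Nlrc5 in replicate 2 was 2.57 CPM, against 3.81 to 4.28 CPM in the other libraries of the group. The gap to the nearest library was 0.723 of the group's whole range, more than Dixon's critical value for 5 samples. It was 1 of 20 groups tested (10 genes in DMSO and FICZ), and chance alone gives about 1 in 20.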

How the results depend on the processing

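None of the 10 class I genes passed between FICZ and DMSO under any fit tried. Beside the slopes on Alb and the unadjusted p of Psmb9 in edgeR given above, the block took the unadjusted p of Tap1 in DESeq2 from 0.0661 to 0.0436, and changed no adjusted call of the 10 genes between groups. Over all genes the number past the threshold was 8 with the block, 16 by DESeq2, 26 by DESeq2 with the block and 0 without both libraries numbered 5 (added after the data were seen), and between 1 and 4 without 1 library. Of the 180 alternative fold changes, 171 kept their direction and side of the threshold. The reversed ones were B2m (0.22), H2-K1 (0.074) and H2-D1 (0.11) with Alb as a covariate, and B2m (0.12) and H2-D1 (0.046) without both libraries numbered 5; the cause was not tested. Without 1 library the log2 fold change ranged from -0.27 to 0.11 for B2m, from -0.31 to 0.0028 for H2-D1 (both above 0 without DMSO replicate 5), from -0.0065 (without DMSO replicate 1) to 0.25 for Erap1 and from -0.0088 (without DMSO replicate 3) to 0.22 for Tapbp. The difference in mean log2 CPM ranged from -0.22 to 0.13 for B2m, from -0.28 to 0.020 for H2-D1 and from -0.0011 to 0.23 for Tapbp. The exact p of that difference without 1 library ranged from 0.0238 to 0.151 for Psmb8, from 0.0397 to 0.143 for Psmb9 and from 0.0317 to 0.270 for Tap1, at or under 0.05 in 1 of 10 for each.

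The number of class I genes whose slope on Alb passed was between 0 and 3 without 1 library, 0 without the 2 libraries farthest in Alb and 0 without both libraries numbered 5. Over all genes it was between 396 and 3330, 238 and 360 in turn. The slopes of Tap2 and Psmb8 ranged from -0.18 to 0.048 and from -0.23 to 0.20 without 1 library, above 0 without DMSO replicate 5, and turned to 0.033 and 0.41 without the 2 libraries farthest in Alb, and to 0.013 and 0.17 without both libraries numbered 5. DESeq2 called 1 class I gene for the replicate number, edgeR none. The log2 ratio of Psmb8 to Psmb5 lay between 0.42 and 0.64 without 1 library, with an exact p between 0.0238 and 0.0794, at or under 0.05 in 4 of 10. That of Psmb9 to Psmb6 lay between 0.29 and 0.57, at or under 0.05 in 1. That of Psmb10 to Psmb7 lay between 0.39 and 0.59, at or under 0.05 in 10 of 10. By the sign-flip test of the pairs (replicate block) the values were 0.53 for Psmb8 and 0.50 for Psmb10, with p of 0.125 and 0.0625. Psmb9 and Nlrc5 were measured with 77 to 251 counts per library.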

Other observations

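Of 10 class I-like molecules tested, 8 had a fold change below 0, where 6585 of all 14251 genes did. In edgeR 1 of the 10 was lower at an unadjusted p under 0.05, where 497 of all genes were. That was Azgp1, a secreted class I-like lipid-mobilizing protein, with 44.1 ± 35.6 CPM with DMSO and 19.7 ± 2.96 CPM with FICZ (SD, n = 5) and a log2 fold change of -1.16. Its slope on Alb was 0.95 ± 0.04 (SE). Cd1d1, the class I-like molecule that presents lipids to natural killer T cells, had 16.2 ± 5.68 CPM with DMSO and 13.2 ± 2.51 CPM with FICZ, and its slope on Alb passed the threshold with 0.42 ± 0.07 (SE, adjusted p = 0.00157, edgeR). The 4 tested Kupffer cell markers, genes of liver macrophages, all passed with a median slope of 1.00, where 8.84% of all genes passed with a positive slope. For a lower level with FICZ, 11 of 11 hepatocyte markers had an unadjusted p under 0.05 in edgeR, where 497 of all 14251 genes did. With the replicate block none of the 11 did, where 309 of all genes did. Of 7 endothelial markers 1 passed with a positive slope, and of 10 ASPC markers 2 did, with Dcn, a matrix proteoglycan, at 0.34 ± 0.10 (SE). Over all genes 8.84% did. Of 4 tested mature adipocyte markers, 2 had a fold change above 0 and 2 below, with a median log2 fold change of -0.04. Cidec, a lipid droplet gene and 1 of the lower 2, had 2.23 ± 1.75 CPM with DMSO and 0.890 ± 0.245 CPM with FICZ.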
